A study of Drosophila melanogaster with 2 samples.

Results

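The first maternal RNA changes were described by comparing the 10 embryos at positions 1 to 10 of the pseudo-time order with the 10 embryos at positions 20 to 29, all of them in cluster 1, the youngest of the embryo clusters. These 20 early and late embryos belonged to the 29 embryos of cluster 1, among 84 ordered embryos, and the 9 embryos between them are called middle embryos here. The embryos were Drosophila melanogaster of the wild-type inbred line DGRP-737, laid in 2 cages (A and B) and collected in nominal intervals of 0-1 h, 1-2 h or 2-3 h. Each embryo was dechorionated and processed alone, its poly(A) RNA was primed with oligo-dT in a modified CEL-Seq2 protocol with unique molecular identifiers (UMIs), and barcoded embryos were pooled in 2 libraries. Eggs judged unfertilized had been left out of the order by the study, from a high position without transcripts of early zygotic genes. The study placed the minor wave of zygotic transcription between clusters 1 and 2. That screen could therefore say little about whether an embryo of cluster 1 was fertilized. The early group held 9 embryos of 0-1 h and 1 of 1-2 h, 7 from cage A and 3 from cage B. The late group held 6 embryos of 0-1 h and 4 of 1-2 h, 6 from cage A and 4 from cage B.

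A fly egg is laid with a full stock of RNA made in the ovary, and this stock runs the rapid syncytial divisions while the zygotic genome is nearly silent. Egg activation starts both the translation of stored messages and their clearance, in which RNA-binding proteins such as Smaug and Brain tumor recruit the deadenylation machinery. With an oligo-dT primed library, a message that loses or gains poly(A) can change its count without a change in the number of molecules, so a count here measures RNA that could be primed.

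The order itself was computed by the study from the same expression values, over all genes. A difference between early and late embryos is therefore a description of what the order separates, and the edgeR threshold used below (adjusted p under 0.01) is a rule for naming genes and not an error rate. The collection interval was set at the bench and did not enter the order, so it served as a label not read from expression. Membership of cluster 1 was itself set from expression, and most embryos of 1-2 h fell in later clusters. The interval comparisons therefore cover only those 1-2 h embryos that the study clustered with the youngest. Embryos of 1-2 h sat at a mean position of 20 (n = 6) and those of 0-1 h at 13.7 (n = 23), a difference of 6.30 positions that an exact two-sided permutation test did not separate (p = 0.114). The difference was 3.83 positions in cage A (p = 0.442, exact permutation) and 11.2 in cage B (p = 0.178, exact permutation). Among embryos whose total equals a barcode total of library 1 it was 10 positions (p = 0.0593, exact permutation, n = 5 and 10). One embryo of 1-2 h was placed at position 3, and embryos of 0-1 h reached position 28.

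Totals ranged from 641252 to 1740172 UMIs (median 1191356.5) in early embryos and from 771226 to 1981304 (median 1121873) in late embryos, and a two-sided permutation test on log2 totals found no separation (p = 0.974, n = 10 and 10). Thinned to 300000 UMIs, early embryos had a median of 6503 genes detected (6427 to 6559) and late embryos 6471.5 (6436 to 6771), against 6939.5 and 6945.5 before thinning. Of 12 markers of the maternal germ line and egg, all were measured and their summed level was 1105 to 1412 normalized counts in early and 934 to 1273 in late embryos, where a normalized count is a UMI count scaled to the smallest embryo total in the table, 274491 UMIs. The marker dhd alone had a mean of 673 in early and 620 in late embryos. oskar, the germ plasm organizer, was the lowest of these defining markers at 0 to 1.94 normalized counts in cluster 1, and grk was also low at 0.636 to 5.64. In each raw library oskar had a median of 0 UMIs per 1000000. Whether the counting missed its message was not tested. None of the 21 follicle cell and eggshell markers was a row of the embryo table, and in the raw libraries they made up a median of 1.15 and 0.971 UMIs per 1000000. The 20 early zygotic markers summed to 1.49 to 8.13 normalized counts in early embryos and 2.63 to 22.3 in late embryos, and overlapped.

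Some embryos stood apart. The embryo at position 29 (1-2 h) carried 1104 normalized counts in genes whose mean over the other cluster 1 embryos was under 1. Any other embryo of the cluster had at most 482 by the same measure. Outside that set, genes of older tissues were also high at position 29. The tracheal chitin-binding gene Gasp had 12.1 normalized counts (mean 1.36 in the other embryos) and the muscle gene sls 19.2 (mean 1.54). The embryo at position 28 (0-1 h) had the highest Nxf3, lilli, Trc8, pcx and CrebA of the cluster. The study listed it as without DNA for sex typing, while the other embryos from position 23 to 29 were given a sex. Its early zygotic markers summed to 2.63 normalized counts, the lowest of the late embryos. Whether it was fertilized was not tested. Counts are therefore also given without the embryos at positions 28 and 29. The library of an embryo was not named in the table, but 28 of the 29 cluster 1 totals equal a single barcode total of 1 library, and this was used as a batch split only. By that reading, 8 early embryos fell in library 1 and 2 in library 2, and 4 late embryos in library 1 and 5 in library 2, so library and order partly coincided. In cluster 1, 304 of 6759 genes differed between the libraries by edgeR with the interval as a term (adjusted p under 0.01).

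Most differences between late and early embryos were small. Of 6759 genes tested, 47 were lower in late embryos (0.695% of those tested) and 128 were higher (1.89%). None of the 47 fell by more than 2-fold (0%), while 11 of the 128 were higher by more than 2-fold (0.163%). By DESeq2 the counts were 87 and 203, again with 0 lower by more than 2-fold. Reduced or adjusted fits did hold such genes, with 17 lower by more than 2-fold within library 1, 3 with library as a term and 2 without positions 28 and 29. The median log2 fold change was -0.46 for the lower genes and 0.56 for the higher genes, against 0.00 over all genes tested. Ranges overlapped for nearly all of them. The early and late ranges were separate for 1 of the 47 lower genes (CG34293) and for 2 of the 128 higher genes (Wdr62 and CG7536), and over all 6759 genes for 2 lower and 3 higher ones.

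Among the genes lower in late embryos, hoip showed the largest change. It encodes an RNA-binding protein of the spliceosome and of small nucleolar particles, and lies at 2L:9699791-9700459 (plus strand, annotation BDGP6.54). Its normalized count was 33.8 at the lowest, 80.9 at the median and 114 at the highest in early embryos, and 22.2, 30.95 and 73.6 in late embryos. The log2 fold change was -0.95 ± 0.20 (SE, n = 10 and 10), or -1.06 without positions 28 and 29. The groups overlapped at both ends, with the 1-2 h embryo at position 3 as the lowest early value and a 0-1 h embryo at position 22 as the highest late value. GstD1, a glutathione S-transferase, went from 121, 170 and 230 (lowest, median, highest) in early embryos to 77.9, 105 and 148 in late embryos, a log2 fold change of -0.62 ± 0.10. CG34293 held between 14.2 and 17.5 in all 10 early embryos and between 5.69 and 12.8 in all 10 late ones. By collection interval, 1-2 h minus 0-1 h, its log2 fold change was -0.08 ± 0.18, and it was not called (edgeR adjusted p = 0.83).

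Subunits of the respiratory chain and ATP synthase made up 6 of the 47 lower genes, out of 66 such genes tested. Over all genes tested 0.695% were lower. COX8, a subunit of cytochrome c oxidase at 3L:21538859-21539447 (minus strand), had 52.9, 72.3 and 88.2 normalized counts in early embryos and 26.3, 45.8 and 57.8 in late embryos (log2 fold change -0.65 ± 0.10). UQCR-6.4, a subunit of the cytochrome bc1 complex, had 17.8, 28.1 and 31.2 in early embryos and 10.7, 16.1 and 20.5 in late embryos (-0.68 ± 0.10). The lowest early value was reached by 2 late embryos for COX8 and by 3 for UQCR-6.4. Metabolic enzymes among the other lower genes were the juvenile hormone epoxide hydrolase Jheh3 (-0.72 ± 0.17), the adenylate kinase Adk3 (-0.65 ± 0.14) and the ribose-5-phosphate isomerase Rpi (-0.55 ± 0.13). Rpi did not pass without positions 28 and 29 (-0.48), and Adk3 did not with library as a term (-0.57). Jheh3 and Adk3 went on to 2.73 and 3.61 normalized counts in the mean cluster 2 embryo, and COX8 stayed at 44.1 there.

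**Figure D1:**
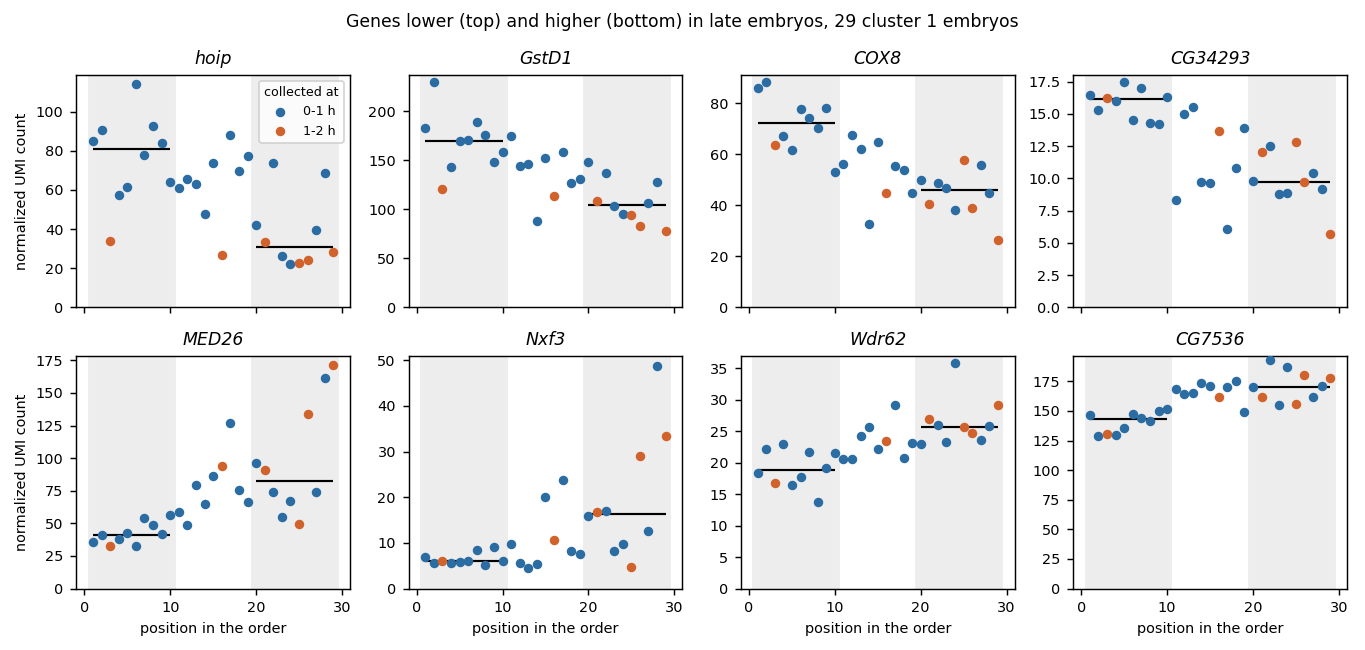
Normalized UMI count (vertical axis, from 0) against position in the order for 4 genes lower and 4 genes higher in late embryos; each point is 1 of the 29 cluster 1 embryos, coloured by collection interval, grey bands mark the early and late groups and bars their medians. hoip is at most 33.8 in the 6 embryos of 1-2 h, while CG34293 and CG7536 separate early from late embryos.

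Among the genes higher in late embryos, MED26, a Mediator subunit at 4:778516-788978 (minus strand), had 32.3, 41.3 and 56.4 normalized counts in early embryos and 49.3, 82.6 and 172 in late embryos, with a log2 fold change of 1.22 ± 0.18 and of 0.94 without positions 28 and 29. Nxf3, a member of the nuclear RNA export factor family, had 5.05, 6.03 and 9.04 in early embryos and 4.74, 16.3 and 48.8 in late ones (1.63 ± 0.29), and its highest late values were those at positions 28, 29 and 26. lilli, which encodes the scaffold of the super elongation complex, was at 7.41 to 12.0 in early embryos and 8.27 to 64.98 in late ones. Without positions 28 and 29 the late range of lilli ended at 20.9, its log2 fold change went from 1.23 to 0.59, and it no longer passed the threshold. The histone methyltransferase gene Set1 behaved in the same way (0.92, and 0.56 without those embryos, not passing).

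Smaller shifts were tighter. CG7536 had 129, 143 and 152 normalized counts in early embryos and 155, 170 and 193 in late ones, and the log2 fold change was 0.31 ± 0.06. Wdr62, a spindle and centrosome protein gene at 2L:1884622-1944289 (plus strand), had 13.7, 18.8 and 22.9 in early embryos and 22.96, 25.7 and 35.9 in late ones (0.48 ± 0.09). By collection interval, the medians at 0-1 h and 1-2 h were 162 and 162 for CG7536, and 22.1 and 25.1 for Wdr62. Both remained past the threshold without positions 28 and 29. Of the 128 higher genes 69 did so in all, and of the 47 lower genes 33 did. In that fit 43 genes were lower and 71 higher. CrebA, a regulator of secretory genes, had the largest fold change among the higher genes at 2.51, from 0.355 to 1.77 normalized counts in early embryos and 0 to 20.8 in late ones, with the top value again at position 28. Without positions 28 and 29 its late values ended at 3.82, the log2 fold change was 1.38, and it no longer passed.

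The split by library bore on these counts. Within library 1, 8 early against 4 late embryos gave 102 lower and 238 higher genes, of which 33 and 109 were also called over all 20 embryos. Within library 2, 2 early against 5 late embryos gave 0 of either by edgeR, with 582 genes at an unadjusted p under 0.05. With library as a term, 92 were lower and 256 higher. Cage A alone gave 1 and 3, and cage B alone gave 0 and 0 (801 genes at an unadjusted p under 0.05). Among embryos of 0-1 h alone, 9 early against 6 late, 22 genes were lower and 56 higher, of which 15 and 48 were also called over all 20 embryos.

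The genes that separated early from late embryos differed in transcript length. Length was not an input to the order, but the order came from the same counts. The length pattern therefore describes the order and is not an independent check of it. The longest annotated transcript was 914 nt at the median of the lower genes (45 of 47 with a length), 4815 nt for the higher genes (127 of 128) and 2070 nt over all genes tested. The 3′ untranslated region was 141 nt, 1117 nt and 319 nt in the same order, and the coding sequence 627 nt, 2667 nt and 1365 nt. Of the 5 equal classes of length, the shortest (162 to 1156 nt) held 29 of the lower genes and 0 of the higher ones, and the longest (3983 to 71382 nt) held 0 lower and 83 higher.

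The pattern was not limited to the named genes. The median log2 fold change, late minus early, rose through the length classes from -0.15 to -0.04, 0.00, 0.05 and 0.11. The shortest and longest classes were at -0.14 and 0.09 without positions 28 and 29, at -0.17 and 0.14 within library 1, at -0.22 and 0.15 within library 2, and at -0.16 and 0.09 among 0-1 h embryos alone. Between libraries they were at -0.03 and 0.01. The difference between intervals, 1-2 h minus 0-1 h, gave -0.07 and 0.09, or -0.07 and 0.06 without position 29, from embryos that partly served in both comparisons.

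**Figure D2:**
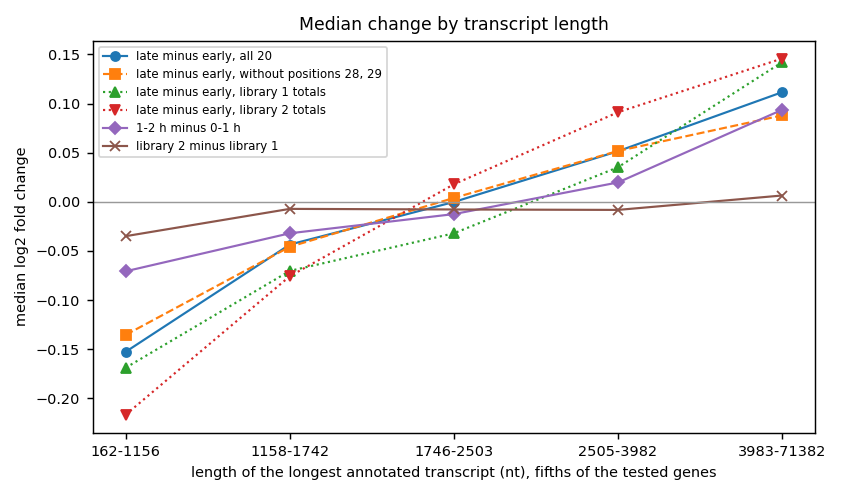
Median log2 fold change (vertical axis) of the tested genes in 5 equal classes of transcript length (horizontal axis, nt), for late minus early embryos in all 20 and in reduced sets, for 1-2 h minus 0-1 h, and for library 2 minus library 1. The late minus early medians rise from -0.15 to 0.11 over the classes, and the difference between libraries stays between -0.03 and 0.01.

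As a share of each embryo's UMIs, genes with a transcript over 5 kb took 12.8% to 14.5% (median 13.3%) in early embryos, 13.3% to 15.2% (median 13.9%) in middle ones and 13.3% to 16.4% (median 14.7%) in late ones. Genes under 1 kb took 11.0% to 13.2% (median 12.3%), 10.2% to 12.7% (median 11.5%) and 9.45% to 11.8% (median 11.1%). Early and late embryos overlapped in both shares. By collection interval the shares were not separated. The mean for genes over 5 kb was 14.5% at 1-2 h and 13.99% at 0-1 h (exact permutation p = 0.244, adjusted 0.489 over 2 comparisons, n = 6 and 23), and for genes under 1 kb 11.6% and 11.5% (exact permutation p = 0.777, adjusted 0.777). Without position 29 the difference for genes over 5 kb went from 0.505 to 0.126 percentage points (exact permutation p = 0.732, n = 5 and 23), and for genes under 1 kb from 0.120 to 0.264 (exact permutation p = 0.557). These 2 tests were added after the length pattern had been seen. Whether RNA quality, priming or library preparation plays a part in the length pattern was not tested, and no measure of RNA integrity was used here.

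**Figure D3:**
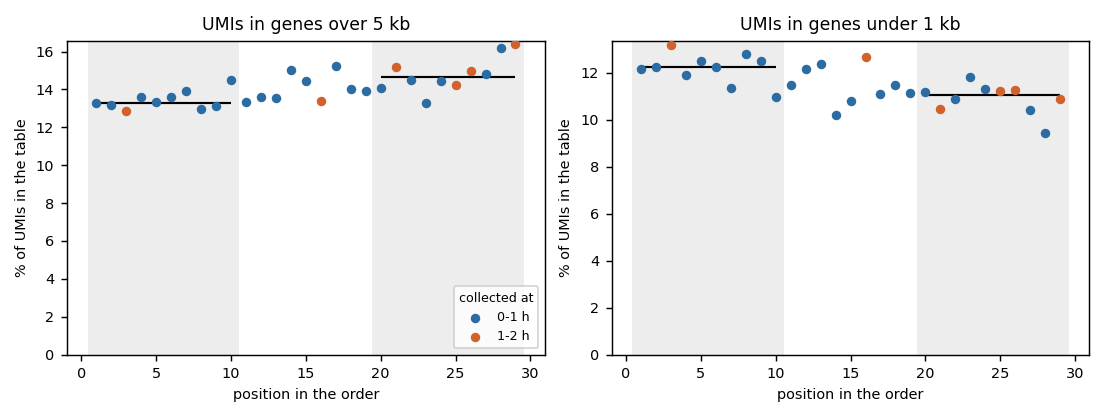
Percent of an embryo's UMIs in genes with a longest transcript over 5 kb (left) or under 1 kb (right) against position in the order, for the 29 cluster 1 embryos coloured by collection interval; bars are medians of the early and late groups. The share of long genes has a median of 13.3% in early and 14.7% in late embryos, and the highest 2 points are positions 28 and 29.

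By collection interval some maternal messages were lower in the 6 embryos of 1-2 h, of which 1 was early, 1 middle and 4 late. Of 6759 genes, 46 were lower at 1-2 h (0.681%), 9 of them by more than 2-fold (0.133%), and 43 were higher (0.636%), 28 of them by more than 2-fold (0.414%). NAT1, a translation factor related to eIF4G at 2R:12915994-12923734 (plus strand), had 42.7, 124 and 213 normalized counts at 0-1 h (n = 23) and 37.1, 44.5 and 59.8 at 1-2 h (n = 6), lower by edgeR with an adjusted p of 0.00081 (-1.45 ± 0.25, SE, on the log2 scale). The 1-2 h embryo at position 3 had 40.7, when the other early embryos had 69.6 to 211. The late 0-1 h embryos ran from 42.7 to 187.

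hoip was 22.2, 68.6 and 114 at 0-1 h and 22.5, 27.5 and 33.8 at 1-2 h (-1.19 ± 0.22, edgeR adjusted p = 0.0012). P32, which encodes a mitochondrial matrix protein, had medians of 39.5 and 15.2 (-1.33 ± 0.25, edgeR adjusted p = 0.0015), and Smyd5, a SET and MYND domain gene, had 18.05 and 7.77 (-1.23 ± 0.26, edgeR adjusted p = 0.0050). The translation initiation gene eIF3j was the called gene whose ranges did not overlap, at 18.8 to 28.3 and 10.6 to 18.5 (-0.54 ± 0.11, edgeR adjusted p = 0.0041). Over all 6759 genes, 3 that were lower at 1-2 h had separate ranges. The 0-1 h embryo at position 24 was as low as those of 1-2 h in hoip, NAT1, P32 and Smyd5, and the one at position 23 in all of these but NAT1.

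**Figure D4:**
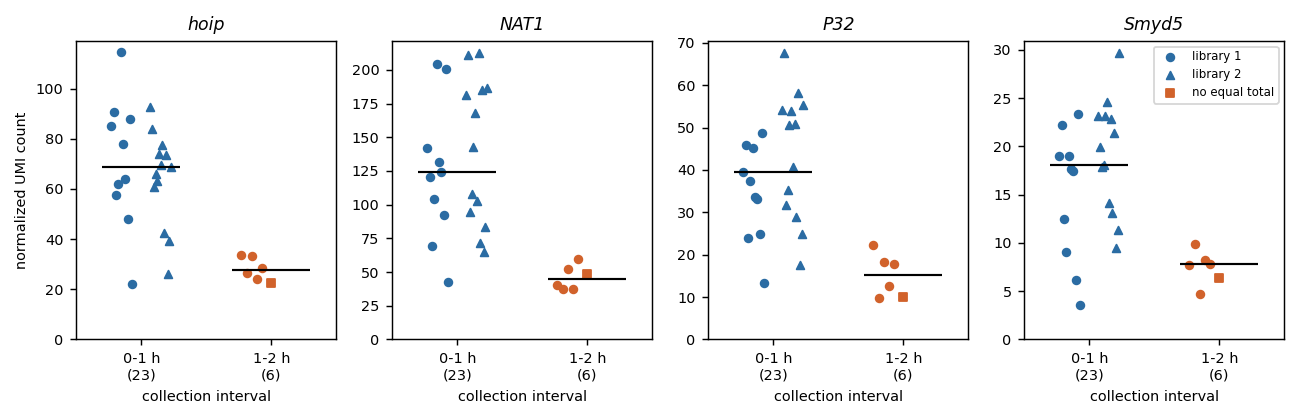
Normalized UMI count (vertical axis, from 0) of 4 genes in cluster 1 embryos of 0-1 h (23) and 1-2 h (6); each point is an embryo, its shape the library read from an equal barcode total, and the bar is the median. All 6 embryos of 1-2 h lie at the low end, and NAT1 reaches at most 59.8 there against a median of 124 at 0-1 h.

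The interval calls were fragile in number. All 5 of the 1-2 h embryos with a library reading fell in library 1, and their totals were lower (median 852548 UMIs over the 6, against 1147832 at 0-1 h). With library as a term, 2 of the 46 lower genes were still called. Within library 1 (10 against 5 embryos) edgeR called 0 genes, with 1102 at an unadjusted p under 0.05, and hoip and NAT1 had log2 fold changes of -1.20 and -1.35 at an adjusted p of 0.024 each. Without the embryo at position 29, 15 genes were lower and 3 higher, and of the 43 higher genes 3 were still called. In that fit NAT1 (-1.55, edgeR adjusted p = 0.0021), P32 and hoip were still called, and Smyd5 and eIF3j were not (edgeR adjusted p = 0.019 and 0.033). Leaving out the embryo at position 26 gave 15 and 16, and the one at position 25 gave 23 and 55.

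The genes higher at 1-2 h were led by Osi7, sls, Glut4EF, fne and lncRNA:Hsromega, and the first of these shows the part of 1 embryo and 1 library. Osi7 was at 43.8 normalized counts at position 29, at 2.14 to 8.12 in the other 14 library 1 embryos and at 0 to 0.693 in all 13 library 2 embryos. Gasp was likewise at 0.946 to 4.55 in those library 1 embryos and at 0 to 0.829 in library 2. fne, a neuronal RNA-binding protein gene, had 28.1 at position 29 and at most 4.43 elsewhere. Early zygotic transcripts were present at traces. CG15876 was at 0.587 to 3.23 at 1-2 h and at 0 to 1.78 at 0-1 h, and CG16813 at 0 to 3.23 and 0 to 1.00.

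The later clusters show where these sets went, in embryos that neither comparison had used. The study also computed these clusters from expression over all genes, so the values describe the order and are not an independent check of it. From cluster 2 (11 embryos) to cluster 3 (6 embryos) the 46 genes lower at 1-2 h had a median log2 fold change of -1.04, negative for 44, against 0.04 over all genes. The 47 genes lower in late embryos had -0.67, negative for 34. The 128 genes higher in late embryos had -0.08 from cluster 2 to 3, 0.34 from cluster 3 to 4 (3 embryos) and -0.29 from cluster 4 to 5 (9 embryos). From cluster 3 to 4 the genes lower in late embryos had -1.30 and those lower at 1-2 h -1.999 (44 tested), and from cluster 4 to 5 they had -0.14 (38 tested) and 0.36 (33 tested). hoip had a mean of 6.84 ± 4.29 (SD) normalized counts in cluster 2 and 1.84 ± 1.14 in cluster 3, NAT1 29.3 ± 7.85 and 16.98 ± 7.04, and P32 4.82 ± 1.64 and 1.65 ± 0.61. COX8 was at 44.1 ± 9.44 and 52.2 ± 15.5.

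By gene group, few nuclear-encoded mitochondrial messages passed the threshold, and most of their fold changes were below 0. Over all genes tested, 0.695% were lower, 1.89% were higher, and 1390 of 6759 had an unadjusted p under 0.05 by edgeR. Of 66 oxidative phosphorylation subunits 6 were lower, 0 higher and 60 did not pass (29 at an unadjusted p under 0.05). Their median log2 fold change was -0.17, with 62 of 66 negative. The 6 were UQCR-6.4, COX8, ND-B17.2, COX7C, UQCR-C2 and sun, and blw, the ATP synthase alpha subunit, was at 300.0 normalized counts in the median early and 345 in the median late embryo (0.21 ± 0.07, not passing). Of 74 mitochondrial ribosomal proteins 1 was lower (mRpL54, -0.34 ± 0.08) and 34 had an unadjusted p under 0.05, and 72 were negative with a median of -0.24. Of 85 cytoplasmic ribosomal proteins 0 were called by edgeR (23 at an unadjusted p under 0.05, and 1 called by DESeq2), 83 were negative and the median was -0.12. All 3 lists hold short transcripts, with median lengths of 836, 786.5 and 882 nt, and the median over all tested genes of that length class was -0.15. With library as a term the list medians were -0.20, -0.33 and -0.10, and that of the class -0.18. Within library 1 they were -0.23, -0.38 and -0.03 against -0.17, and within library 2 -0.19, -0.28 and -0.26 against -0.22. By collection interval, 1-2 h minus 0-1 h, the list medians were -0.03, -0.18 and 0.12, and that of the class -0.07. The cytoplasmic ribosomal proteins thus went the other way there, with 74 of 85 positive (also 74 without position 29). Of the oxidative phosphorylation subunits 41 of 66 were negative by interval, and of the mitochondrial ribosomal proteins 57 of 74. Whether transcript length accounts for the shifts between early and late embryos was not tested. Of 32 proteasome subunits 2 were lower, Rpn11 (-0.44 ± 0.09) and Prosbeta3 (-0.28 ± 0.07), with a median of -0.05. Without positions 28 and 29, ND-B17.2, COX7C, mRpL54 and Prosbeta3 no longer passed, and with library as a term ND-B17.2 did not.

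Of 24 regulators of maternal RNA clearance tested, 2 were higher in late embryos and 22 did not pass, where 1.89% of all genes tested were higher. Their median was 0.11, which is also the median of all genes in their length class (0.11). brat, the NHL-domain RNA-binding repressor, had 154, 171 and 204 normalized counts in early embryos and 167, 220 and 249 in late ones (0.35 ± 0.08). AGO1, the Argonaute that carries miRNAs, had 78.4, 99.1 and 112 in early and 91.4, 124 and 248 in late embryos (0.59 ± 0.14). Neither passed without positions 28 and 29. smg, the Smaug gene, had medians of 182 and 191 (0.00 ± 0.09). Of 20 genes of egg activation and translational control 1 was lower (0.695% over all genes tested), fs(1)Ya, which the first embryonic mitoses need (-0.42 ± 0.10).

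The cell cycle genes showed single members rather than a shared shift. For the lists in this paragraph, the shares over all genes tested were 1.89% higher and 0.695% lower. Of 39 genes of the syncytial nuclear cycles 2 were higher, the spindle checkpoint kinase gene Bub1 (61.3 and 86.8 normalized counts at the early and late medians, 0.48 ± 0.08) and the centriole gene ana1 (22.2 and 27.5, 0.34 ± 0.07). stg and twe, the Cdc25 phosphatase genes, had 301 and 359 (0.24 ± 0.08) and 19.9 and 22.4 (0.18 ± 0.10), and CycB had 373 and 428 (0.15 ± 0.09), none of them passing. Of 34 replication genes Mcm3, a subunit of the helicase, was lower (-0.43 ± 0.10) and Cdc6, which loads it, was higher (0.56 ± 0.10). Of 12 pioneer and activating factors zld, the Zelda gene, was higher (108, 133 and 144 in early and 130, 163 and 180 in late embryos, 0.31 ± 0.07). Of 20 chaperones the endoplasmic reticulum chaperone gene Hsc70-3 was higher (309 and 430, 0.59 ± 0.11), and of 29 cytoskeletal genes stai, which encodes stathmin, was higher (0.58 ± 0.11). Bub1, Mcm3, Cdc6, Hsc70-3 and stai passed without positions 28 and 29, and ana1, zld and fs(1)Ya did not. With library as a term, Mcm3 and fs(1)Ya did not pass.

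Classical maternal determinants differed by less than the threshold, which 0.695% (lower) and 1.89% (higher) of all genes tested passed. Of 26 axis and germ plasm genes 0 were called (5 at an unadjusted p under 0.05, and 0 by DESeq2), with a median of 0.01. bcd, the anterior determinant, had 15.6, 19.3 and 22.7 normalized counts (lowest, median, highest) in early embryos, and its late values, lowest 12.7 and median 17.6, overlapped them (-0.10 ± 0.10). nos, the posterior determinant, had medians of 28.5 and 23.5 (-0.26 ± 0.11), and Hsp83, whose message is cleared from the soma later, 523 and 519 (0.01 ± 0.09). dhd, the thioredoxin of the egg, had 652 and 644 (-0.10 ± 0.12), and its mean was 404 ± 97.7 (SD) in cluster 2 and 196 ± 54.8 in cluster 3. Of 25 oocyte-specific genes and 28 maternal chromatin genes 0 were called by edgeR (5 and 6 at an unadjusted p under 0.05, and 0 and 1 by DESeq2). Of 94 long noncoding and antisense RNAs lncRNA:CR32218 (1.36 ± 0.27) and lncRNA:CR45102 (0.60 ± 0.13) were higher, and lncRNA:CR32218 did not pass without positions 28 and 29 (1.08). The strand setting of the counts was not checked here, and whether the count of an antisense RNA holds reads of an overlapping message was not tested.

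**Figure D5:**
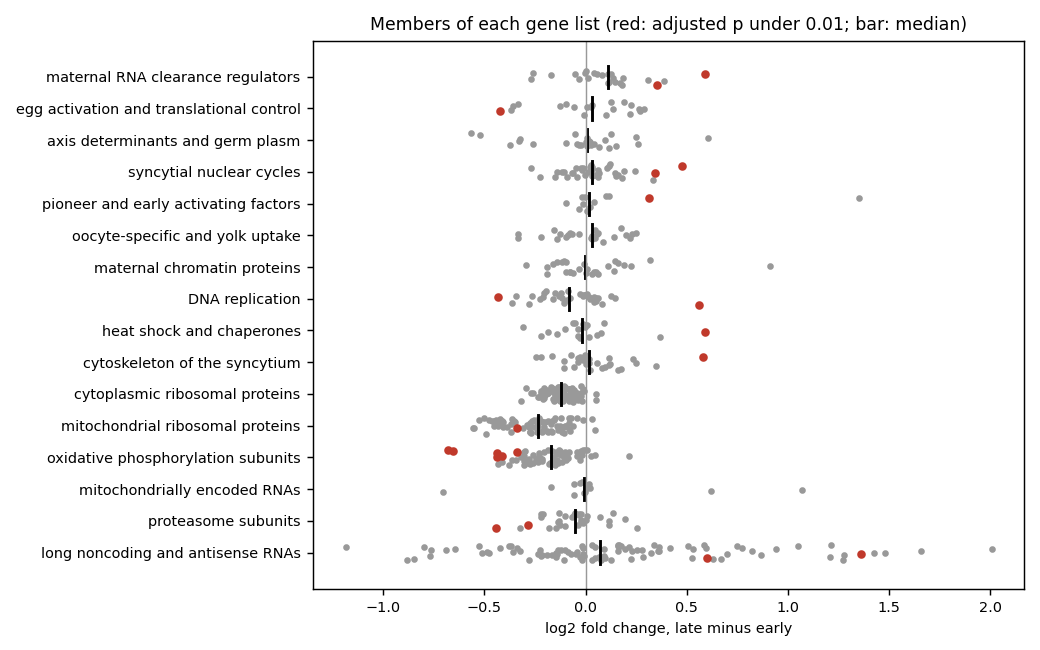
Log2 fold change, late minus early (horizontal axis), of each tested member of 16 gene lists; red points passed an edgeR adjusted p under 0.01, grey points did not, and the bar is the median of the list. The 3 nuclear lists of ribosomal and respiratory proteins sit left of 0, with medians of -0.12, -0.24 and -0.17.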

How the data were processed

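The deposited table holds 7629 genes in 84 embryos in pseudo-time order. The authors aligned and counted reads with STARsolo in STAR 2.7.8a, counted UMIs, scaled each embryo to the smallest total and added 0.1. Here 0.1 was removed and UMI counts were recovered as whole multiples of each column's step. 100% of values were whole within 0.0001. The deposited raw counts of the 2 libraries served only for barcode totals and markers that are not rows of the table.

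Genes with at least 3 UMIs in at least 5 of the 29 cluster 1 embryos were tested with the edgeR 4.0.16 quasi-likelihood test (TMM, Benjamini-Hochberg over 6759 genes), early against late and 1-2 h against 0-1 h. The interval and cage were read from embryo names. Fold changes are log2, with an SE taken from the test statistic. Alternatives used DESeq2 1.42.0, limma 3.58.1, other scaling, filters, terms and subsets. Permutation tests used scipy 1.17.1, exact or with 100000 resamples. On simulated data, 96% of 2-fold and 70% of 1.5-fold changes were recovered for early against late, and 92% and 64% for the interval. The changed genes were drawn only from those above a minimum mean count. The simulation held no library effect, and its groups were not read from the counts. These rates therefore do not cover genes of a few UMIs or the overlap of library with group.

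The text names up to 15 genes per direction (5 for the interval) past the threshold with a mean of at least 5 normalized counts, non-overlapping genes first and then by fold, besides called and abundant members of the gene lists and 10 fixed genes. Genes outside this rule (CrebA, Gasp, CG15876 and CG16813) were chosen after their values were seen. The embryos, gene lists and tests were chosen with earlier results of these data known. Transcript lengths come from Ensembl BDGP6.54 by gene name (7514 of 7629 matched) and are those of the longest transcript. Sequence motifs and GC content were not analysed here.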

Additional observations from a re-analysis of the deposited data

Results flagged for a closer look

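A far value was looked for in the early, middle and late groups of 9 or 10 embryos and in the 1-2 h group of 6, for embryo totals and shares and for the genes with the largest changes. A value was noted when its gap to the nearest other embryo took an unusually large part of the group's range (Dixon's 95% limit), which chance gives in about 1 in 20 groups. Over 115 groups there were 10 such values.

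At position 29, the sum over genes scarcely detected in the rest of cluster 1 was 1104 normalized counts, and the next late embryo had 476. In the same embryo Osi7 was at 43.8, Glut4EF at 18.9 and fne at 28.1, and the nearest embryos of 1-2 h were at 5.58, 4.70 and 3.82. Genes typical of older tissues were thus high in the last embryo of the cluster. Its source was not tested.

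At position 17, in the middle group, CG5316 was at 32.5 normalized counts and pcx, the gene of the Notch pathway protein Pecanex, at 56.2, against 18.2 and 33.7 in the nearest embryos. At position 16 CG14931 was at 27.3 with the nearest at 43.4. Among early embryos, Rpi was at 8.13 at position 3 with the nearest at 14.3, and CG5316 was at 6.06 at position 6 with the nearest at 9.42. Wdr62 was at 35.9 at position 24 with the nearest late embryo at 29.2. Without the embryo at position 24, 33 genes were lower and 124 higher in late embryos. The middle embryos at positions 16 and 17 were in neither group of that comparison.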

How the results depend on the processing

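For early against late, with 47 genes lower, 128 higher and 11 over 2-fold, the counts were 87, 203 and 8 with DESeq2, 46, 81 and 6 with limma-trend, 22, 56 and 9 in 0-1 h embryos, 23, 75 and 7 with interval as a term, 1, 3 and 0 in cage A, and 0, 0 and 0 in cage B (801 genes at an unadjusted p under 0.05). Settings added after seeing the data gave 92, 256 and 56 with library as a term, 102, 238 and 79 in library 1, 0, 0 and 0 in library 2 (582 genes at an unadjusted p under 0.05), and 43, 71 and 5 without positions 28 and 29. Leaving out 1 embryo gave 28 to 65, 86 to 163 and 7 to 17 (29 lower without position 1, 28 without position 2, 30 without position 26, and 17 over 2-fold without position 22). DESeq2 gave no adjusted p for 1966 genes. For the interval, with 46 lower, 43 higher and 37 over 2-fold, they were 74, 70 and 36 with DESeq2, 131, 35 and 44 with library totals, 36, 22 and 20 with the higher count filter, 16, 5 and 8 with depth as a term, 152, 19 and 14 with limma-trend, 2, 2 and 2 with library as a term, 0, 0 and 0 in library 1 (1102 genes at an unadjusted p under 0.05), 15, 3 and 6 without position 29, and 15, 2 and 5 without positions 28 and 29. Leaving out 1 embryo of 1-2 h gave 15 to 54, 3 to 59 and 6 to 42, with 23 lower without position 25, 15 and 16 without position 26 and 15 and 3 without position 29. The causes were not tested, though smaller sets have fewer embryos. The other 54 counts and values stayed within 1.5 times or on the same side of the threshold. Library totals moved the median of all genes by interval to -0.07. No named gene past the threshold changed sign. No paired analysis was possible because the embryos carry no shared replicate numbers between the groups. Depth limits genes of a few UMIs, where 1 embryo can set a fold change.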

Other observations

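For the 14 mitochondrially encoded RNAs in the table, the early and late embryos gave a median log2 fold change of -0.01 and edgeR called 0 of 14 (1 at an unadjusted p under 0.05, and 1 by DESeq2). The cytochrome oxidase message mt:CoI had 594, 735 and 1108 normalized counts (lowest, median, highest) in early embryos and 493, 788 and 922 in late ones. By collection interval the log2 fold changes of all 14 were above 0, with a median of 0.48 (0.52 without position 29, 13 above 0), and 0 were called by edgeR (11 at an unadjusted p under 0.05, and 0 by DESeq2). mt:CoI differed by 0.44 ± 0.16 (SE, edgeR adjusted p = 0.0922). Transcripts of 1 organelle genome do not vary independently, and the 1-2 h embryos were mostly of library 1.

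A motor gene and a replication gene changed with collection interval while their early and late levels lay closer. Dhc64C, the cytoplasmic dynein heavy chain, was lower at 1-2 h by edgeR (-0.59 ± 0.11), against -0.25 ± 0.11 for late minus early, was still called without position 29 (-0.67), and its mean was 26.9 normalized counts in cluster 2 and 15.95 in cluster 3. Orc4, a subunit of the origin recognition complex, was lower at 1-2 h (-0.58 ± 0.13) and had -0.12 ± 0.13 for late minus early, and without position 29 it was not called (-0.52, edgeR adjusted p = 0.040). The difference between these pairs of values was not tested, since the comparisons share embryos. lncRNA:roX1, the dosage compensation RNA of males, was higher at 1-2 h (1.36 ± 0.29), with 27.05 normalized counts at position 29 and at most 9.74 in the rest of cluster 1. The study typed the embryo at position 29 as female, and it reported more of this RNA in females at first. Without position 29 the log2 fold change of lncRNA:roX1 was 0.53 and it was not called (edgeR adjusted p = 0.293).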
